A study of Mus musculus with 4 samples.

Results

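Imprinted non-coding genes other than the miRNA genes of the Dlk1-Dio3 domain were followed in small RNA libraries of Tbx18-lineage stroma from around the mouse wolffian duct. The list holds 5 miRNA genes (Mir335, Mir483, Mir675, Mir296 and Mir298) and 5 long RNAs (H19, Meg3, Mirg, Kcnq1ot1 and Airn), chosen by name and matched by gene ID, and all 10 had a row among the 2976 of the table. The study sorted red fluorescent cells from CD1 embryos at E10.5 of the genotype Tbx18-Cre;CAG-tdTomato, so that a cell in which the Tbx18 promoter had driven Cre, and its descendants, were labelled. All 4 libraries shared this genotype and stage and form 1 group, described as wildtype, so levels within the population were measured and no comparison between conditions exists. Whether each library came from its own embryo or from pooled tissue is not in the labels. Spreads and p-values therefore cover variation among these 4 libraries alone, part or all of which may be technical.

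In genomic imprinting a gene is expressed mainly from the chromosome of either the mother or the father, under the control of a region methylated in one parent's germ line. Mir335 lies in Mest, a gene expressed from the paternal chromosome, and Mir483 lies in Igf2, which encodes a paternally expressed growth factor. H19 is the maternally expressed neighbour of Igf2 and carries Mir675. Meg3 and Mirg belong to the maternally expressed transcripts of Dlk1-Dio3, while Kcnq1ot1 and Airn are paternally expressed antisense RNAs that silence neighbouring genes in cis. Mir296 and Mir298 lie downstream of the antisense transcript of the Gnas locus. Imprinted genes as a group are known for roles in fetal and placental growth.

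The deposited values do not separate the arms of a hairpin, so the sequences below show what each row can hold. Mature arms are given 5′ to 3′ from RefSeq (GRCm38.p6), with the seed, bases 2 to 8, in capitals, since the seed sets which transcripts a miRNA can pair with.
miR-335-5p: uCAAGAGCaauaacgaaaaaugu
miR-335-3p: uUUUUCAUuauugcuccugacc
miR-483-5p: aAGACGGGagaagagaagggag
miR-483-3p: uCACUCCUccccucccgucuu
miR-675-5p: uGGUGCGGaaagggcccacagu
miR-675-3p: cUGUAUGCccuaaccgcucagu
miR-296-5p: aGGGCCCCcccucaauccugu
miR-296-3p: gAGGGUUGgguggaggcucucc
miR-298-5p: gGCAGAGGagggcuguucuuccc
miR-298-3p: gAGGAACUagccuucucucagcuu
None of the 10 seeds was shared with an arm of another gene among the 1738 mature sequences of the RefSeq table, and no mature sequence recurred at another gene. Reads of these miRNAs therefore have no second annotated copy in that table, and the 5 genes form no seed family.

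The hairpins differ in base composition. The Mir335 hairpin, 98 nt long with 42.9% G and C, is shown because it belongs to the most abundant gene of the list, and the Mir675 hairpin, 84 nt long with 63.1% G and C, because it gave no reads; capitals mark the mature arms.
Mir335: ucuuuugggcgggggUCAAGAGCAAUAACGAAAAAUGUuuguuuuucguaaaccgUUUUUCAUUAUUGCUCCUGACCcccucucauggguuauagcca
Mir675: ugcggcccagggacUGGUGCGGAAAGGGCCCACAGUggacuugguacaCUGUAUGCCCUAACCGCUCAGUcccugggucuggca
The G and C content was 63.3% for Mir296, 58.9% for Mir483 and 53.7% for Mir298, against a median of 49.4% over the 525 miRNA rows with a hairpin sequence. By folding energy per base, predicted with RNAfold, 1.71% of those 525 hairpins were more stable than that of Mir675 and 38.3% were more stable than that of Mir335.

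Coordinates are those of GRCm38. Mir335 (gene ID 723930) occupies bases 30741299 to 30741396 of chromosome 6, on the plus strand, in an intron of Mest on the same strand. Mir483 (gene ID 723874) occupies bases 142654924 to 142654996 of chromosome 7, on the minus strand, in an intron of Igf2. Mir675 (gene ID 735280) lies 77776 nt away on the same strand, at 142577064 to 142577147, inside an exon of H19 (142575530 to 142578146). Its hairpin was found whole in 3 of the 7 GENCODE transcripts of H19, at bases 997 to 1080 of the longest of these, a transcript of 2286 nt. Mir296 (gene ID 723906) and Mir298 (gene ID 723832) lie on chromosome 2, minus strand, at 174267047 to 174267125 and 174267504 to 174267585, with 378 nt between them. Neither overlaps a GENCODE gene of the Gnas locus, and the Gnas antisense transcript Nespas, on the same strand, ends 13652 nt from Mir298.

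**Figure D1:**
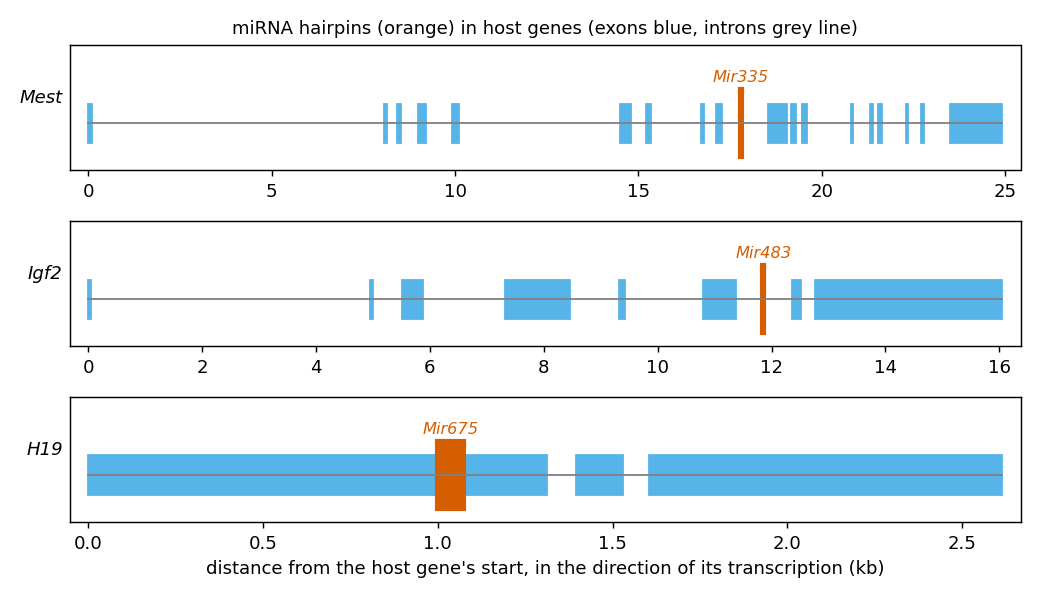
Position of the Mir335, Mir483 and Mir675 hairpins (orange) in their host genes, drawn to scale along the direction of transcription (x axis, distance from the host's start in kb; blue boxes, merged GENCODE exons; grey line, introns). Mir335 and Mir483 sit in introns of Mest and Igf2, and Mir675 sits inside the first exon of H19.

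The libraries differed in depth and composition. The reads of all miRNA genes together, as recovered from the values, ranged from 146255 in library 4 to 1087240 in library 2. TPM, a length-scaled abundance, summed in this table to only 2.33% (library 4) to 7.22% (library 2) of the total it is scaled to, so each member is also given as its share of the library's summed TPM in this table, in parts per 1000000 (ppm). Long non-coding genes made up 7.13% of that sum in library 2, 10.3% in library 3, 10.7% in library 1 and 19.2% in library 4. Of the marker miRNAs of the labelled tissue, the mesenchymal Mir199a-1 and Mir199b summed with Mir214 to between 128 TPM (library 4) and 1327 TPM (library 1), with Mir214 listed at 0. Markers of other cell types ranged from 43.5 to 157 TPM for 6 epithelial miRNAs, from 251 to 528 TPM for endothelial Mir126a and from 0.878 to 11.9 TPM for 2 erythroid miRNAs. The 3 neural rows had the widest range, at 346, 36.1, 2871 and 79.0 TPM in libraries 1 to 4, with Mir124a-1 listed at 0. Fewer cells of a type and less RNA per cell cannot be told apart in such bulk samples.

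The list split by size of RNA. With 1 TPM or more in all 4 libraries called detected, 4 of the 10 genes passed, all of them miRNA genes, against a background of 7.69% of all rows, 33.1% of miRNA genes and 0.163% of long non-coding genes. A value above 0 in every library was reached by 8 of the 10, against 18.8% of all rows, 49.6% of miRNA genes and 10.4% of long non-coding genes. The exceptions were Mir675, listed at 0 throughout, and Airn. The median of the mean TPM was 65.6 for the 5 miRNA genes, against 0.315 over all 643 miRNA rows, and 0.0425 for the 5 long RNAs, against 0.00117 over all 1840 long non-coding rows. Reads from a long RNA in a small RNA library come from fragments or short RNAs cut from it, so its TPM here does not measure the intact transcript.

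**Figure D2:**
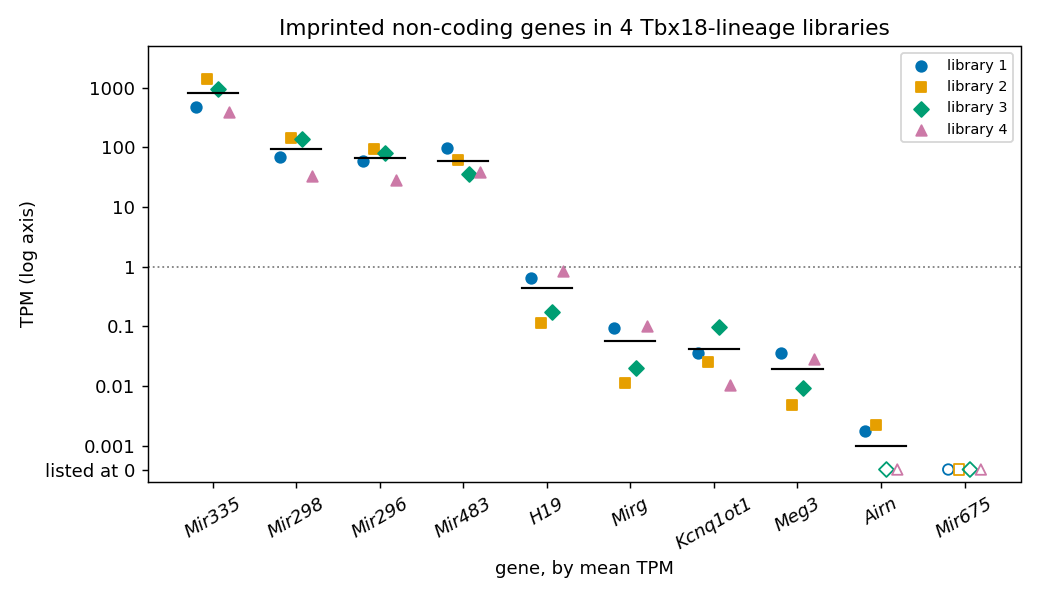
TPM (log axis) of each gene in each of the 4 libraries (points) with the mean of the 4 (black bar), ordered by mean; open symbols are values listed at 0 and the dotted line is 1 TPM. Mir335, Mir298, Mir296 and Mir483 lie above 28 TPM in every library, and the 5 long RNAs lie below 1 TPM.

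Among the miRNA genes, the paternally expressed Mir335 was the highest. It read 481, 1397, 940 and 394 TPM in libraries 1 to 4, a mean of 803 ± 463 TPM (SD, n = 4). Libraries 2 and 3 were the high ones and library 4 the lowest. Its mean ranked 13th of the 643 miRNA rows, at the 98.0th percentile. As a share of the table it was 9736, 19347, 13222 and 16867 ppm, so the factor of 3.55 between its extreme libraries in TPM fell to 1.99. In reads, Mir335 took 1.36% of the miRNA reads of library 1 (Wilson 95% interval 1.34 to 1.39), 2.59% of library 2 (2.56 to 2.62), 1.81% of library 3 (1.78 to 1.83) and 2.84% of library 4 (2.76 to 2.93). These intervals cover counting error only and do not overlap, so the differences between the libraries exceeded the counting error. Of the 57 miRNA rows between Meg3 and Mirg in the Dlk1-Dio3 domain, 1 had a higher mean than Mir335, and 4, 1, 1 and 3 did so within libraries 1 to 4.

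The pair from the Gnas locus came next. Mir298 read 69.2, 141, 136 and 33.0 TPM in libraries 1 to 4 (mean 94.8 ± 52.6, SD, n = 4), and Mir296 read 58.2, 95.4, 80.4 and 28.4 TPM (mean 65.6 ± 29.1, SD, n = 4). Both were highest in library 2 and lowest in library 4, in the order of libraries 2, 3, 1 and 4 that Mir335 also had. That order was held by 22.3% of the 319 miRNA rows above 0 in every library, these genes included. It is also the order of the libraries' summed TPM in this table, from 72205 in library 2 to 23340 in library 4. Of the 319 rows, 123 were highest in library 2 and 127 in library 3, while 234 were lowest in library 4. As shares, Mir298 took 1402, 1955, 1909 and 1415 ppm of the 4 libraries. Mir296 took 1178, 1322, 1131 and 1217 ppm, a coefficient of variation of 6.69%. Of the 229 rows detected in all 4 libraries, 1 had a smaller coefficient of variation of its share than Mir296, and 18 had a smaller one than Mir298 at 18.1%, where the median was 39.8%. In TPM the coefficient for Mir296 was 44.4% and 45 of the 229 rows had a smaller one, so its evenness was seen in the share and much less in TPM. The Mir296 share of miRNA reads was 0.133%, 0.143%, 0.125% and 0.165% in libraries 1 to 4, with Wilson 95% intervals of 0.126 to 0.141, 0.136 to 0.150, 0.118 to 0.132 and 0.146 to 0.188. The intervals of libraries 2 and 3 did not overlap, nor did those of library 4 with libraries 1 and 3, so some differences exceeded the counting error.

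Mir483, from the Igf2 intron, had another profile. It read 97.2, 61.7, 35.9 and 38.0 TPM in libraries 1 to 4 (mean 58.2 ± 28.5, SD, n = 4), highest in library 1. Its order of libraries was held by 2.51% of the 319 miRNA rows, Mir483 itself included. As a share it was 1968, 855, 505 and 1628 ppm, so libraries 1 and 4 lay above libraries 2 and 3 by this measure, and the coefficient of variation of its share, 54.5%, was above the median of 39.8%. In TPM its coefficient of 49.0% was below the median of 58.3%, so this order depends on the scale. In reads it took 0.206% (Wilson 95% interval 0.196 to 0.215) of library 1 and 0.204% (0.183 to 0.229) of library 4. The corresponding shares were 0.0852% (0.0799 to 0.0908) in library 2 and 0.0513% (0.0470 to 0.0560) in library 3. Striated muscle marker miRNAs summed to 340, 128, 115 and 223 TPM in libraries 1 to 4, with 2 of the 4 rows detected and Mir1a-2 listed at 0. Mir122, abundant in liver, read 91.8, 23.5, 51.7 and 144 TPM. In TPM these markers were higher in libraries 1 and 4 than in 2 and 3, as was the Mir483 share but not its TPM. Their part in the Mir483 profile was not tested.

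**Figure D3:**
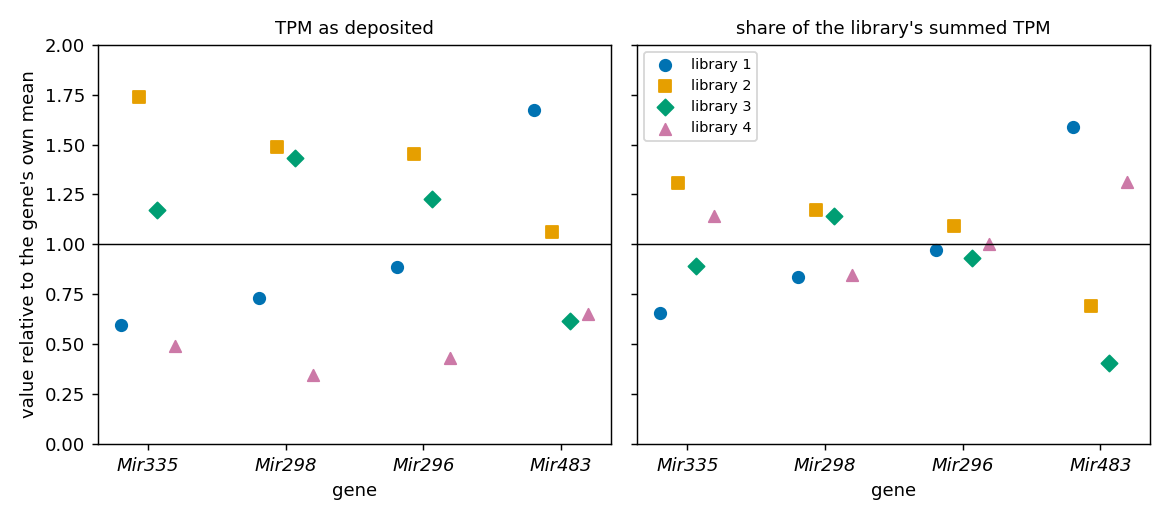
Value of the 4 detected miRNA genes in each library relative to the gene's own mean, in TPM as deposited (left) and as a share of the library's summed TPM in the table (right). Mir296 closes to between 1131 and 1322 ppm on the right, while Mir483 stays spread, from 505 to 1968 ppm.

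Mir675 was listed at 0 in all 4 libraries. With 3 reads taken as the limit, a count of 0 allows up to 0.140, 0.174, 0.186 and 0.331 TPM for its hairpin in libraries 1 to 4. Its hairpin lies in an exon of H19, which has a row of its own, and the sources used here do not say how reads that fit both were counted, so a listed 0 does not show that miR-675 was absent. Among the 525 miRNA rows with a hairpin sequence, 14 of 32 hairpins inside an exon of another row on the same strand were at 0 in every library (43.8%). That compares with 131 of 472 that overlapped no other row (27.8%) and 1 of 21 in an intron of another row (4.76%). A further 118 miRNA rows had no strand and could not be placed, and 57 of them were at 0 (48.3%). Hairpins in exons were also detected in all libraries at a higher share, 14 of 32 (43.8%) against 164 of 472 (34.7%), and neither difference was tested. The other 4 miRNA genes of the list overlapped no other row. Inside the long RNAs, Meg3 held Mir1906-1 and Mir770, both in exons and both at 0. Mirg held 10 miRNA rows, 2 of them at 0, led by Mir541 at 1549 ± 674 TPM, Mir409 at 668 ± 253 TPM and Mir369 at 51.2 ± 27.8 TPM (SD, n = 4). Of the miRNA rows that overlap a Mirg exon in GENCODE, Mir369, Mir377, Mir412 and Mir3072 were above 0 in every library and Mir410 was at 0. The annotation used for counting is not stated, so whether these hairpins lay in counted exons of Mirg is not known. No miRNA row lay inside Kcnq1ot1 or Airn.

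Among the long RNAs, H19 was the highest, at 0.637, 0.113, 0.172 and 0.848 TPM in libraries 1 to 4 (mean 0.442 ± 0.358, SD, n = 4). Libraries 1 and 4 were high and libraries 2 and 3 low, with 7.47 times as much in library 4 as in library 2. Its mean ranked 10th of the 1840 long non-coding rows. The values correspond to 426, 61, 86 and 239 reads for a length of 2615 nt, the only length up to the gene's span that gave whole reads in all libraries. As a share of the table H19 spanned 1.57 ppm (library 2) to 36.3 ppm (library 4).

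Mirg, the long RNA at the distal end of Dlk1-Dio3, read 0.0932, 0.0112, 0.0201 and 0.0999 TPM (mean 0.0561 ± 0.0469, SD, n = 4). Meg3, at the start of that domain, read 0.0361, 0.00490, 0.00930 and 0.0280 TPM (mean 0.0196 ± 0.0149, SD, n = 4). Both had libraries 1 and 4 above 2 and 3, as H19 did. The fewest whole reads that could give these values were 31, 3, 5 and 14 for Mirg and 119, 13, 23 and 39 for Meg3, and multiples of these would fit too, since the sources used here do not give the lengths that the authors applied. On the fewest reads, the Mirg counts of 3 in library 2 and 5 in library 3 have exact Poisson 95% intervals of 0.619 to 8.77 and 1.62 to 11.7, which overlap. Of the 192 long non-coding rows above 0 in every library, 122 (63.5%) were highest in library 4 and 34 (17.7%) in library 1, while 58 were lowest in library 1. The order of libraries 4, 1, 3 and 2 that H19 and Mirg had was held by 19.3% of these rows, both genes included. That of Meg3, which was highest in library 1, was held by 6.77%, Meg3 itself included. Other measures were also high in libraries 1 and 4. Mir122 of liver, at 91.8, 23.5, 51.7 and 144 TPM, had the order of H19 and Mirg. The striated muscle markers, with 2 of 4 rows detected, summed to 340, 128, 115 and 223 TPM, in the order of libraries 1, 4, 2 and 3. The share of long non-coding genes in the table was highest in library 4, at 19.2%. The part of these in the H19, Meg3 and Mirg profiles was not tested.

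Kcnq1ot1, the long antisense RNA of the Kcnq1 domain, had a different order. It read 0.0361, 0.0254, 0.0982 and 0.0102 TPM in libraries 1 to 4 (mean 0.0425 ± 0.0386, SD, n = 4), highest in library 3 and lowest in library 4. For its length of 83437 nt these are 771, 435, 1570 and 92 reads, more than the long RNAs above in libraries 1 to 3, since TPM divides by length. This order of libraries was held by 7 of the 192 long non-coding rows above 0 in every library (3.65%), Kcnq1ot1 itself included. Among these 7 was Snhg14, the very long host transcript of the Snurf-Snrpn imprinted domain, at 0.0125, 0.00665, 0.0285 and 0.00423 TPM. As a share Kcnq1ot1 was 0.731, 0.351, 1.38 and 0.438 ppm, again highest in library 3, but with library 2 lowest. The summed neural markers, at 346, 36.1, 2871 and 79.0 TPM, were likewise highest in library 3. So were the epithelial, endothelial, erythroid and white blood cell markers. Only 1 of the 3 neural rows was detected, and Mir124a-1 was listed at 0. The neural sum followed the order of the Kcnq1ot1 share, as did the erythroid and white blood cell sums, whose rows were not detected. It did not follow that of the Kcnq1ot1 TPM, where library 4 was lowest. The epithelial sum, at 73.8, 46.3, 157 and 43.5 TPM, had the order of the Kcnq1ot1 TPM. The part of these markers in the Kcnq1ot1 profile was not tested. Without library 3 the mean of Kcnq1ot1 was 0.0239 TPM, 0.563 times the value with it.

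Airn, the antisense RNA of the Igf2r domain, had the lowest values above 0 of the list. It read 0.00179 and 0.00222 TPM in libraries 1 and 2 and 0 in libraries 3 and 4, and the fewest whole reads behind this are 1, 1, 0 and 0. The exact Poisson 95% interval of 1 read is 0.0253 to 5.57, and that of 0 reads reaches 3.69, so on these fewest reads no difference between libraries was detectable. Multiples would fit too, with 54 sets of whole reads possible up to the gene's span, so the depth behind the Airn values is uncertain. Kcnq1ot1 and Airn are both antisense to protein-coding genes, and the sources used here do not say whether counting used strand, so reads of the sense transcripts may be included.

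**Figure D4:**
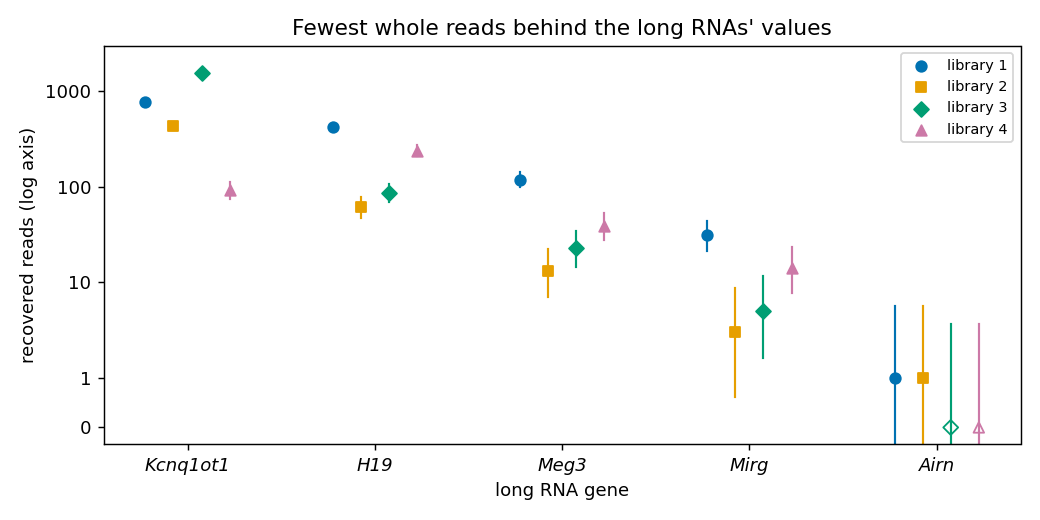
Fewest whole reads (log axis; open symbols, 0 reads) that give the deposited values of the 5 long RNAs in each library, with exact Poisson 95% intervals for counting error (lines). Kcnq1ot1 peaks in library 3 at 1570 reads and H19 in library 1 at 426, and the fewest reads that give the Airn values are 1, 1, 0 and 0.

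In each library, 10 pairs of genes were set against each other by the log2 ratio of their TPM, after a pseudocount of 1 was added to both. They were pairs of loci chosen by name, and neighbours in the order of mean TPM among genes with a mean of at least 1 TPM. That order came from these same libraries, so the direction of the neighbour pairs is not independent of it. Of the 10 pairs, 9 kept 1 sign in every library. In 2 of the 9 the second gene was Mir675, at 0 throughout, which fixes the sign, and in another it was Airn, at 0 in libraries 3 and 4. Flipping the signs of the 4 ratios in an exact permutation test, two-sided, gave p = 0.125 for each of the 9. This is the smallest p that the design can reach (adjusted p = 0.139, Benjamini-Hochberg over the 10 pairs), so no pair could pass 0.05. Mir335 exceeded Mir298, its neighbour in the order of levels, by 3.10 ± 0.38 log2 units (SD, n = 4), with ratios of 6.95, 9.90, 6.93 and 11.9 in TPM. Mir298 exceeded Mir296 by 0.44 ± 0.26, higher in 4 of 4 libraries, with TPM ratios of 1.19, 1.48, 1.69 and 1.16. The hairpins are close in length, at 82 and 79 nt, and in reads not divided by length the difference was 0.50. Mir296 and Mir483 did not separate beyond their spread, at 0.16 ± 0.87 (higher in 2 of 4 libraries, exact permutation p = 0.75). Mir335 exceeded Mir483 by 3.70 ± 1.10 log2 units (SD, n = 4), from 2.29 in library 1 to 4.67 in library 3.

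For the long RNAs the pseudocount of 1 TPM is larger than the values, so the TPM ratios are more readable than the log2 ratios. H19 was 17.7, 23.2, 18.5 and 30.2 times Meg3 in libraries 1 to 4, a log2 ratio of 0.47 ± 0.34 with the pseudocount. Across these libraries the ratio of H19 to Meg3 stayed within a narrower range than either gene, each of which varied over 7-fold. Meg3 was 0.387, 0.436, 0.463 and 0.281 times Mirg, a log2 ratio of -0.05 ± 0.04. That order holds for TPM, which divides by length, and on the fewest whole reads Meg3 was above Mirg by 1.78 log2 units. With 11 sets of whole reads possible for Mirg and 2 for Meg3, the order in reads is not settled. H19 was 17.6, 4.47, 1.75 and 82.9 times Kcnq1ot1, a log2 ratio of 0.44 ± 0.39, and in reads it was below Kcnq1ot1 in 3 of 4 libraries. Kcnq1ot1 was 20.2 and 11.4 times Airn in libraries 1 and 2. The pairs of Mir483 and of H19 with Mir675 had log2 ratios of 5.77 ± 0.66 and 0.50 ± 0.36 (SD, n = 4), and both rest on the listed 0 of Mir675.

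**Figure D5:**
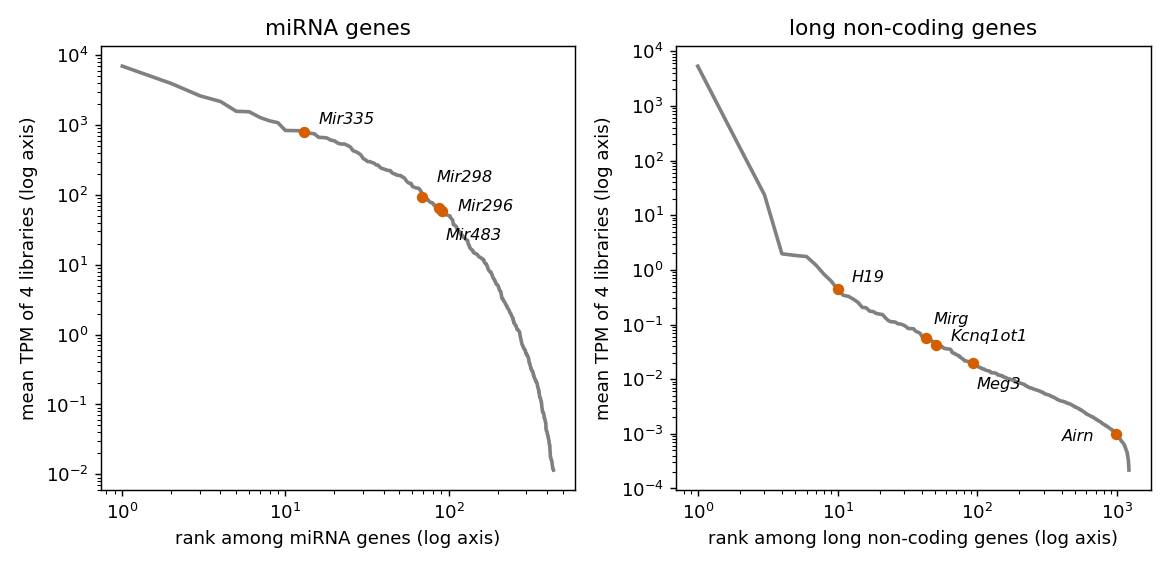
Mean TPM over 4 libraries against rank for miRNA genes (left) and long non-coding genes (right), both axes logarithmic, with the listed genes as orange points and rows at 0 left out. Mir335 ranks 13th of 643 miRNA genes, and H19 ranks 10th of 1840 long non-coding genes.

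Rows with the most similar profile over the 4 libraries were sought for each detected gene, as the Euclidean distance between values of log2(TPM + 1) centred on each row's mean, among the 182 other rows whose mean reached 10 TPM. For Mir335 they were Mir192 (0.230), Mir467a-9 (0.231) and Mir5099 (0.269), against a median distance of 1.31, and Mir5099 was also close in level, at 834 TPM. For Mir298 they were Mir425 (0.111), Mir30e (0.124) and Mir130a (0.172), and for Mir296 they were Mir148a (0.115), Mir196b (0.159) and Mir494 (0.222). The nearest rows of Mir483 were farther off and included 2 rows of other RNA classes. These were Scarna2, a small Cajal body RNA, at 0.503, Rmrp, the RNA of RNase MRP, at 0.528, and Mir485 at 0.556, against a median of 1.85. Within the list, Mir296 and Mir298 were the closest pair at 0.446, and Mir483 lay 1.51 to 1.95 from the others. Distances over 4 libraries also carry the libraries' shared differences in depth and table total, and are given as a description.

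Other imprinted non-coding genes were taken from a list of names, of which 7 had a row. Of these 7, none was detected at 1 TPM or more in every library and Ipw was at 0 in all. Rian, the snoRNA host of Dlk1-Dio3, was the highest, at 1.73, 1.13, 0.642 and 1.40 TPM (mean 1.23 ± 0.46, SD, n = 4), above H19 in every library. The next was Snhg14, with a mean of 0.0130 TPM, followed by Peg13 at 0.0106, Igf2os, which overlaps Igf2, at 0.00881, the Gnas antisense transcript at 0.00364 and Nctc1, near H19, at 0.00120 TPM. The Gnas antisense transcript read 0.00348, 0, 0.00696 and 0.00413 TPM in libraries 1 to 4. The reads behind these low values were not recovered, and their relation to Mir296 and Mir298 was not tested.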

How the data were processed

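Cells were flow-sorted into lysis reagent and total RNA was extracted with a column kit that keeps small RNA, per the labels' protocols, and small RNA libraries were read as 75 bp single reads per the series' design text. The authors deposited TPM, in a table of Entrez genes by library. The submitters' processing notes name mm10 (GRCm38) and limma; for the aligner, counter, annotation and strand setting, nothing is stated (not given in the sources used here). Rows were matched by gene ID to RefSeq genes of GRCm38.p6 (2541 of 2976), and exons came from GENCODE vM21. Reads were recovered by multiplying TPM by gene length and dividing by the smallest such product among the miRNA rows of the library, and 100% of nonzero miRNA values came out whole (tolerance 0.01). For long RNAs the smallest length giving whole reads in all libraries was used. No count model was fitted.

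The members, lists and rules were chosen with earlier results of these data known. Named are the 10 members, a list of other imprinted non-coding genes, the 3 highest miRNA rows in each long RNA and the 3 nearest profiles among rows of at least 10 TPM. The sign-flip test was tested on simulated data. Dixon's critical value for 4 values was 0.829. Tools were RNAfold 2.7.2, scipy 1.17.1, pandas 2.3.3, matplotlib 3.10.9, numpy 2.4.6 and Python 3.11.15.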

Additional observations from a re-analysis of the deposited data

Results flagged for a closer look

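Of 44 sets of 4 values examined with Dixon's test, 1 had a library apart from the rest, where chance gives about 1 in 20. It was Peg13 as a share of the table, at 0.168, 0.0143, 0.0777 and 1.18 ppm in libraries 1 to 4, with a gap of 0.868 of the range. In TPM, Peg13 read 0.00828, 0.00103, 0.00552 and 0.0275, and the gap of 0.726 did not pass the critical value. The flag therefore held for the share, which divides by a summed TPM that was smallest in library 4, and not for TPM. The reads behind these low Peg13 values were not recovered.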

How the results depend on the processing

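The count of 4 detected genes was also 4 at a threshold of 10 TPM and without any 1 library, and 8 for any value above 0. Of the 10 pair ratios, 3 changed direction under an alternative. From recovered reads not divided by length, Meg3 to Mirg was 1.78 and H19 to Kcnq1ot1 was -1.62 log2 units. The ratio of Meg3 to Mirg rests on the fewest whole reads for both genes, and other sets of whole reads fit too, so its direction in reads is not settled. Leaving out 1 library, the ratio of Mir296 to Mir483 ranged from -0.17 to 0.45. The other 7 ratios kept their direction from recovered reads. Each of these 7 had 1 sign in every library. Pseudocounts of 0.1 and 10 TPM, rescaling to the same table total and leaving out a library therefore could not change their direction. Where Mir675, listed at 0, was the second gene, recovered reads could not change it either. The lowest leave-one-out mean of a gene above 0 in every library was that of Kcnq1ot1, at 0.563 of its value. Changing the background rows moved 16 percentiles by more than their spread between libraries. Low counts limit Mirg and Airn most, on their fewest whole reads. No paired analysis was possible because there is only 1 group.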
